A study of Mus musculus with 2 samples.

Results

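The miRNA genes described here are 10 genes known from muscle, out of 1973 miRNA genes counted. They were chosen by name: Mir143, Mir145a and Mir145b as genes of smooth muscle, and Mir208a, Mir208b, Mir499, Mir206, Mir133b, Mir1b and Mir1a-1 as genes of striated muscle. All 10 have a row in both count tables. The samples were stomachs of B6NCrl mouse embryos at 14.5 days of development, with 2 biological replicates in 1 group, and the labels name no treatment and no altered genotype. Each replicate is labelled as 1 stomach from 1 pup, collected on its own day, yet its sex is given as pooled male and female. RNA below 30 nt was sequenced, giving 5004548 counts over genes for replicate 1 and 4679914 for replicate 2. A level is a gene's counts in each 1000000 of these (CPM), so it is a share of the counted miRNA. Fewer cells of a type and less of a miRNA per cell cannot be told apart in whole tissue.

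Mir143 and Mir145a are made from 1 primary transcript in smooth muscle and the mesenchyme around it, and are known to favour the contractile state of smooth muscle cells. The striated muscle miRNAs, often called myomiRs, fall into several families. Mir1 and Mir133 genes are paired in shared transcripts of heart and skeletal muscle, and Mir206, a relative of Mir1, is known from skeletal muscle together with its neighbour Mir133b. Mir208a, Mir208b and Mir499 lie inside myosin heavy chain genes and are made with them. The muscle of the mouse stomach wall is smooth muscle.

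The mature sequences below show how the striated muscle members relate, for the arms printed. They leave out Mir1b and the 3p arm of Mir1a-1, and do not show whether short reads of these differ. They were taken for 6 of the 10 members from a table of RefSeq sequences on GRCm38.p6, and are written 5′ to 3′ with the seed (bases 2 to 8) in capitals. The seed is the stretch that pairs with target mRNAs.
miR-208a-3p: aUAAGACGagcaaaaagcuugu
miR-208b-3p: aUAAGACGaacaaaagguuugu
miR-499-5p: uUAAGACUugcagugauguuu
miR-206-3p: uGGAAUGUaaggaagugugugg
miR-206-5p: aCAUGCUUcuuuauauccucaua
miR-1a-1-5p: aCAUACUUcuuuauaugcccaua
miR-133b-3p: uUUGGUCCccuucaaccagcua

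The miRNAs of the myosin genes have closely related seeds. miR-208a-3p and miR-208b-3p have the same seed and are identical at 19 of 22 positions, with the differences G10A, A16G and C18U, counted from the 5′ end of miR-208a-3p. The seed of miR-499-5p matches theirs at 6 of 7 bases. Beyond the seed it departs more, and it is identical to miR-208b-3p at 10 of 21 positions. miR-206-5p and miR-1a-1-5p are identical at 20 of 23 positions, differing by G5A, C17G and U19C, counted from the 5′ end of miR-206-5p. For Mir1a-1 the 5p arm alone is printed, so the 3p arms of Mir1a-1 and Mir206 and their seeds were not compared. miR-206-3p and miR-133b-3p share their neighbourhood in the genome but not a seed. The deposited counts are per gene and do not separate the arms of a precursor.

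Reads that map to several places were not counted for any gene, so sequence shared between precursors bears on the levels. Of the 10 members, 7 had no window of 20 bases that recurs in a second miRNA precursor of the GENCODE M21 annotation: Mir143, Mir145a, Mir145b, Mir208a, Mir208b, Mir499 and Mir206. Mir208a and Mir208b shared no more than 10 bases in a row on the same strand, so reads of their mature forms differ. The Mir133b precursor shared a stretch of 21 bases with Mir133a-1 and with Mir133a-2. Mir1a-1 shared 28 bases with Mir1a-2, which is longer than a mature miRNA. Mir1b overlaps Mir1a-2 on the opposite strand along the whole Mir1a-2 precursor of 72 bases, and 51.5% of the Mir1b windows were shared. All 53 of these shared windows occur in Mir1a-2, on the same bases of the genome, and are not by themselves a second place for a read. Of the 103 Mir1b windows, 9 also occur in Mir1a-1, at another place.

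**Figure D1:**
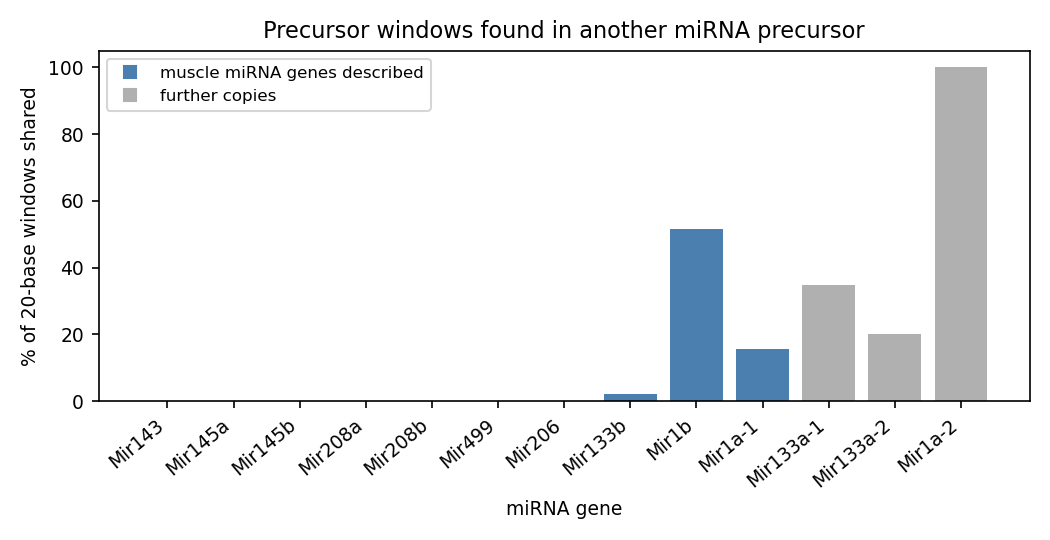
Share of all 20-base windows of each precursor (%, y axis) that also occur in another miRNA precursor on either strand, for the 10 muscle miRNA genes (blue) and 3 further copies (grey). Among the blue bars, Mir133b (2%), Mir1a-1 (15.5%) and Mir1b (51.5%) are above 0, and all 53 windows of Mir1a-2 are shared. Mir1b and Mir1a-2 share these 53 windows by lying on the same bases of the genome, and 9 windows of each also occur in Mir1a-1.

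Among the counted reads, both libraries were led by the smooth muscle miRNA Mir143, while each striated muscle member had fewer than 100 CPM. Mir143 had 807009 counts in replicate 1 and 672623 in replicate 2, the highest count of all genes in each library. That was 16.1% and 14.4% of the gene counts, and 9.22% and 8.15% of all reads when unmapped and uncounted reads are included. It stood 2.00-fold above Mir99a, the next gene in order, in replicate 1 and 1.91-fold in replicate 2. Mir143 lies at chr18:61649196-61649258 on the minus strand of GRCm38 (mm10), and none of its counts came from the opposite strand.

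Mir145a lies 1301 bases from Mir143 on the same strand (chr18:61647825-61647894). It had 14467 counts in replicate 1 and 13042 in replicate 2, or 2891 and 2787 CPM, all on its own strand. By mean CPM it was the 61st gene of the tables, between Mir423 (2953 ± 149 CPM, SD, n = 2) and Mir298 (2755 ± 280 CPM), and its level did not stand apart from either. The precursors of 1 locus were thus counted at very unequal levels. The log2 ratio of Mir143 over Mir145a was 5.75 ± 0.08 (SD, n = 2), and the counting intervals of the fold were 54.9 to 56.7 in replicate 1 and 50.7 to 52.5 in replicate 2. These errors describe the scatter of the libraries, and a bias between sequences common to both would not show in them.

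Mir145b, a gene named for its likeness to Mir145a, lies 7372940 bases from Mir143 at chr18:69022199-69022273. Its precursor has a stretch of 17 bases in common with Mir145a. It had 0 counts on either strand in both libraries, so a level of at most 0.599 CPM is allowed for replicate 1, and of at most 0.641 CPM for replicate 2. These limits, and all intervals given here, cover counting error only.

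**Figure D2:**
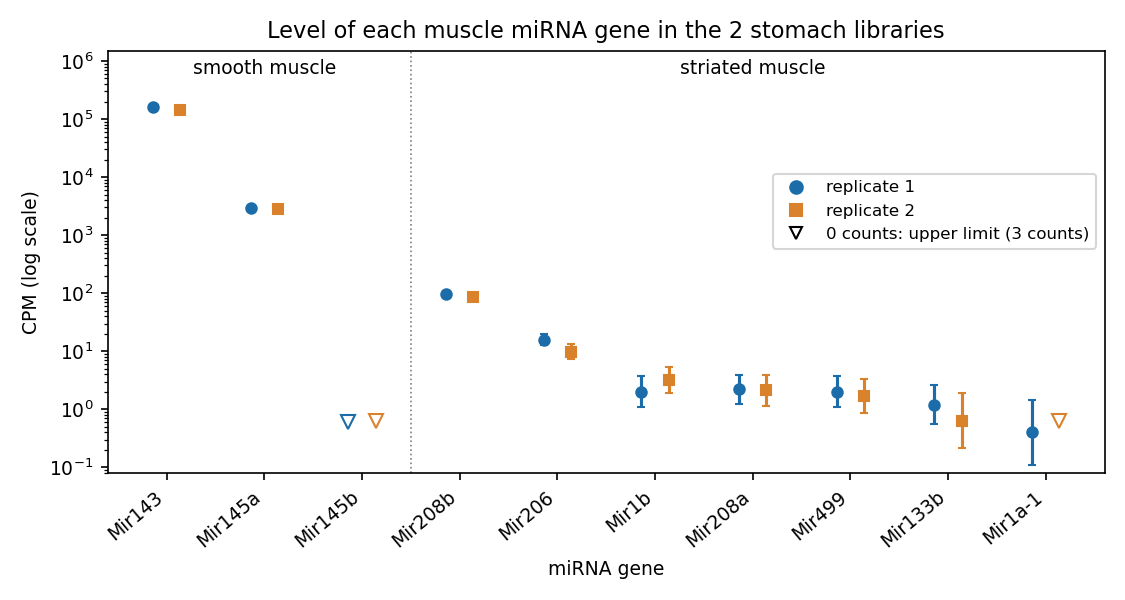
Level of each gene (CPM, log scale, y axis) in replicate 1 (circles) and replicate 2 (squares), with 95% Wilson intervals of the count, and open triangles at the upper limit where a library had 0 counts. Mir143 lies at 161255 and 143726 CPM, and the highest striated muscle gene, Mir208b, at 95.1 and 86.3 CPM.

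Of the striated muscle members, Mir208b had the most counts, with reads of the Mir1 and Mir133 genes that map to several places left out. It lies in intron 31 of Myh7 (chr14:54975700-54975776, minus strand), the gene of the slow and embryonic ventricular myosin heavy chain. Mir208b had 476 counts in replicate 1 and 404 in replicate 2, or 95.1 CPM (95% Wilson interval 86.9 to 104) and 86.3 CPM (78.3 to 95.2). It held 80.1% of all striated muscle counts in replicate 1 and 83.1% in replicate 2. By mean CPM it was gene 202 of the tables, between Mir138-1 (91.6 ± 13.1 CPM) and Mir412 (89.2 ± 3.51 CPM).

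Mir208a, its relative in intron 29 of Myh6 (chr14:54949060-54949142), the gene of the other cardiac myosin heavy chain, was far lower. It had 11 counts in replicate 1 and 10 in replicate 2, or 2.20 and 2.14 CPM. The precursors lie 26557 bases apart on 1 strand. The log2 ratio of Mir208b over Mir208a was 5.39 ± 0.07 (SD, n = 2), with counting intervals of the fold of 24.0 to 87.3 in replicate 1 and 21.7 to 84.9 in replicate 2. Mir499, in intron 19 of Myh7b (chr2:155622880-155622958), had 10 counts in replicate 1 and 8 in replicate 2, or 2.00 and 1.71 CPM. It missed the minimum of 10 counts in both libraries by which a gene was called detected. The mRNA of the host genes was not measured here.

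Mir206, of skeletal muscle, was the second striated muscle member by level. It had 79 counts in replicate 1 and 46 in replicate 2, or 15.8 CPM (12.7 to 19.7) and 9.83 CPM (7.37 to 13.1), and held 13.3% and 9.47% of the striated muscle counts. Its neighbours in the order of all genes were Mir181b-1 (12.9 ± 2.95 CPM) and Mir7689 (12.5 ± 2.20 CPM). Mir133b, the partner of Mir206, lies 3686 bases downstream. Both are within the lincRNA gene Gm28653 on chromosome 1 (Mir206 at 20679010 to 20679082, Mir133b at 20682769 to 20682887). Mir133b had 6 counts in replicate 1 and 3 in replicate 2. The fold of Mir206 over Mir133b had counting intervals of 5.79 to 37.0 in replicate 1 and 4.93 to 77.1 in replicate 2. The first 21 of the 22 bases of miR-133b-3p also occur in both Mir133a precursors, so its count may be too low.

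Mir1a-1 and Mir1b had few counts. Mir1a-1 (chr2:180389048-180389124) had 2 counts in replicate 1 and 0 in replicate 2. Mir1b (chr18:10785446-10785567) had 10 counts in replicate 1 and 15 in replicate 2 over both strands. On its own strand it had 8 counts in each library, and the opposite strand, the strand of Mir1a-2, held 2 in replicate 1 and 7 in replicate 2. Mir1a-2 is not among the genes counted, so these counts could not be given to it. The other 9 members had no count on the opposite strand. Counts of the own strand alone put Mir1b at 1.70 CPM, against 2.60 CPM over both strands, and below Mir208a and Mir499.

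Of 5 further striated muscle genes, Mir133a-1 and Mir133a-2 had 0 counts in both libraries, Mir1a-2 and Mir486b are not among the genes counted, and Mir486, known from muscle and from red blood cells, had 18 counts in replicate 1 and 24 in replicate 2. Mir133a-1 and Mir133a-2 share 31 bases. Reads that map to several places numbered 2437052 in replicate 1, against 594 striated muscle counts, and 2263676 in replicate 2, against 486. How many of them belong to Mir1 or Mir133 genes is not given by the tables, so the own-strand counts of these genes may be too low by an unknown amount. The 4 members without windows shared with another miRNA precursor, Mir208a, Mir208b, Mir499 and Mir206, summed to 576 counts in replicate 1 and 468 in replicate 2.

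**Figure D3:**
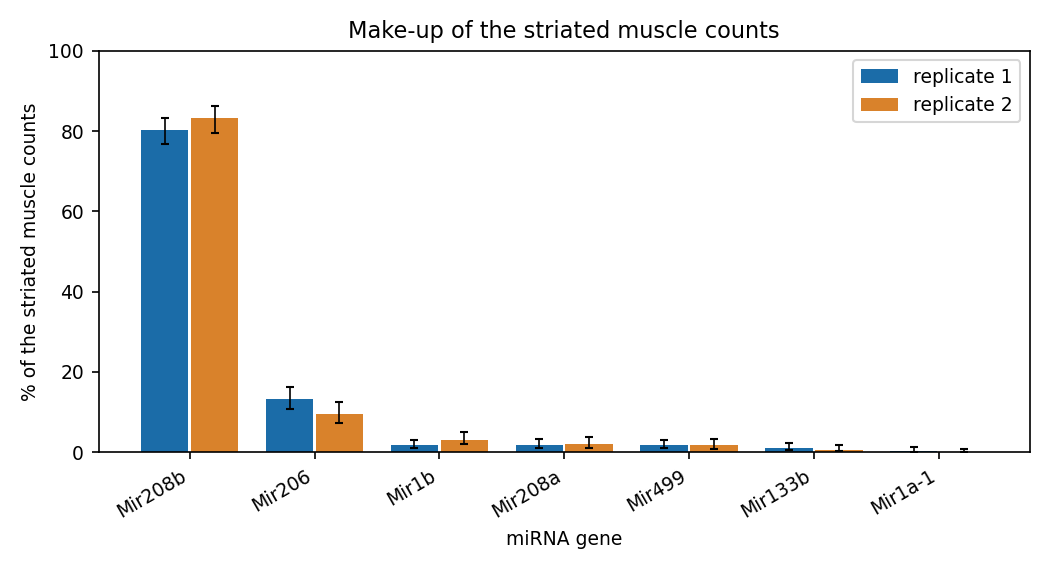
Share of the striated muscle counts (%, y axis) held by each of the 7 members in replicate 1 (blue) and replicate 2 (orange), with 95% Wilson intervals. Mir208b holds 80.1% and 83.1%, Mir206 13.3% and 9.47%, and no other member more than 3.09%.

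Set against each other within each library, the smooth muscle total exceeded the striated muscle total 1383-fold in replicate 1 and 1411-fold in replicate 2. The log2 ratio was 10.45 ± 0.02 (SD, n = 2). The totals were 821476 and 594 counts in replicate 1, and 685665 and 486 counts in replicate 2. Both totals hold counted reads alone. Reads that map to several places were 2.97-fold the smooth muscle total in replicate 1 and 3.30-fold in replicate 2, and any that belong to Mir1 or Mir133 genes would lower the ratio. Among the counted reads, the size of the ratio rested on 1 gene in each class. Mir145a alone exceeded the striated muscle total by a log2 ratio of 4.68 ± 0.10, and exceeded Mir208b alone by 4.97 ± 0.06. With both leading genes left out, the log2 ratio was 7.13. With the 4 striated members without shared windows in place of all 7, it was 10.50 ± 0.03. An exact permutation test over 2 libraries cannot pass a threshold, so the ratios carry no p.

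Within the striated muscle class, the members of the myosin genes together exceeded the Mir206, Mir133b, Mir1b and Mir1a-1 counts 5.12-fold in replicate 1 (counting interval 4.11 to 6.44) and 6.59-fold in replicate 2 (5.06 to 8.72). Of these, Mir133b, Mir1b and Mir1a-1 share sequence and may be counted too low. Mir208b over Mir206 alone, both without shared windows, was 6.03-fold and 8.78-fold.

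The order of the members by mean CPM was Mir143, Mir145a, Mir208b, Mir206, Mir1b, Mir208a, Mir499, Mir133b, Mir1a-1 and Mir145b. The first 4 were each separated from the next member, with the lowest library of one above the highest library of the other. Mir1b and Mir208a overlapped. Mir208a, Mir499 and Mir133b did not overlap in the 2 libraries, but they differ by a few counts and their Wilson intervals overlap, from 1.16 to 3.94 CPM for Mir208a and from 0.866 to 3.68 CPM for Mir499 over both libraries. Mir1a-1 and Mir145b overlapped at 0.

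**Figure D4:**
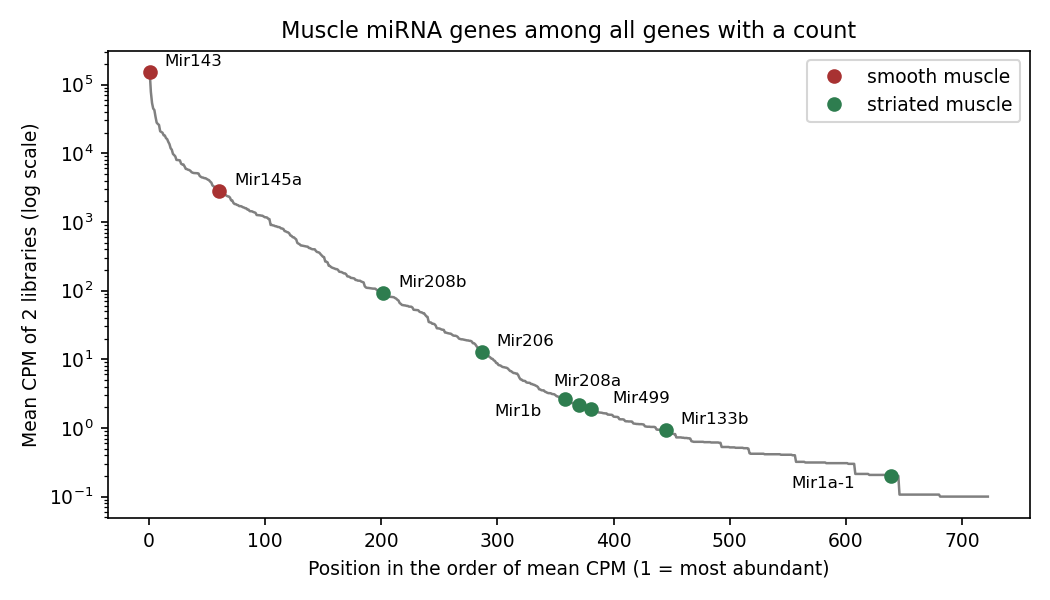
Mean CPM of the 2 libraries (log scale, y axis) against the position of each gene in the order of abundance (x axis), for the 722 genes with at least 1 count (grey line). Mir143 is at position 1 and Mir145a at 61 (red), and the striated muscle members (green) begin with Mir208b at position 202; Mir145b, with 0 counts, is not drawn.

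Among 10 further genes studied in smooth muscle but not particular to it, 8 were detected, beside 361 of all 1973 genes. Mir10a (44729 ± 372 CPM, SD, n = 2) and Mir21a (13564 ± 64.8 CPM) lay above Mir145a, Mir221 (215 ± 9.18 CPM) and Mir222 (131 ± 11.6 CPM) lay between Mir145a and Mir208b, and the other 6, Mir26a-1, Mir26a-2, Mir29a, Mir29b-1, Mir29b-2 and Mir29c, lay below Mir208b. All of these 6 but Mir29a share windows of 20 bases with other precursors, so their levels are uncertain. Other cell types of the organ were also represented. The epithelial Mir200 family totalled 41439 CPM in replicate 1 and 41482 in replicate 2 with 5 of 5 genes detected. Mir126a of endothelium had 21613 and 19164 CPM. The mesenchymal list had 14630 and 15864 CPM with 4 of 4 detected, of which Mir214 alone had 14036 and 15197 CPM. The erythroid list had 147 and 213 CPM, and the neural list 1671 and 1834 CPM, nearly all from Mir137, with Mir124a-1, Mir124a-2 and Mir9-2 at 0. Windows were also shared with another precursor on either strand by Mir451a (100% of windows), Mir126a (72.2%), Mir486 (65.1%), Mir199a-1, Mir199a-2 and Mir199b. The same held for the Mir124a and Mir9 genes, Mir138-1 and Mir181b-1. Such windows can lie in a copy elsewhere or, as for Mir1b and Mir1a-2, in a precursor on the opposite strand of the same place. How far the levels of these genes are uncertain was therefore not tested. Mir143 is also known from mesenchymal cells outside smooth muscle, and the part of each cell type in its level was not tested.

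The replicates were then compared to see how far the members' levels differed between stomachs. Of the 10 members, 6 had 10 or more counts over both strands in each library and were tested, within a test of all 361 such genes. By adjusted p alone 3 of the 6 differed (exact conditional binomial test with Benjamini-Hochberg adjustment), against 152 of all 361 genes, or 42.1%. No member also reached an absolute log2 ratio of 1, which 4 of all genes did (1.11%). The test sets biological replicates against counting noise and compares these libraries, not conditions.

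Mir143 was lower in replicate 2 (143726 CPM) than in replicate 1 (161255 CPM), a log2 ratio of -0.17 (95% interval -0.17 to -0.16), and its adjusted p was too small for the software to represent. Mir145a had 2787 CPM in replicate 2 and 2891 CPM in replicate 1, a log2 ratio of -0.05 (-0.09 to -0.02, adjusted p = 0.00688 in the exact test). Both genes of the locus were lower in replicate 2, by less than the SD of 0.20 that the log2 ratios of the 196 genes of 100 CPM or more had. For Mir143 this turned with the scaling, to -0.22 with TMM factors and -0.26 with size factors, both beyond 0.20. Mir145a had -0.11 and -0.14 under these scalings. Mir206 had 46 counts in replicate 2 and 79 in replicate 1, a log2 ratio of -0.68 (-1.24 to -0.14, adjusted p = 0.0293 in the exact test). With genes of 1 count or more in the sum tested, its adjusted p was 0.0578.

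Mir208b had a log2 ratio of -0.14 (-0.33 to 0.05), with an adjusted p of 0.273 in the exact test, and 0.0396 with DESeq2's size factors. Mir208a had -0.04 (-1.43 to 1.33) and Mir1b 0.68 (-0.57 to 2.00), intervals too wide to show a difference at this depth. The rise of Mir1b lay on the opposite strand, with 2 counts in replicate 1 and 7 in replicate 2. On its own strand Mir1b had 8 counts in each library, below the minimum of 10 for the test. The median over the 6 members was -0.10, beside 0.04 over all 361 genes. By adjusted p alone 89 genes were higher in replicate 2 (24.7%) and 63 lower (17.5%), and this split turned with the scaling, to 74 higher and 94 lower with TMM factors and to 58 higher and 115 lower with size factors.

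**Figure D5:**
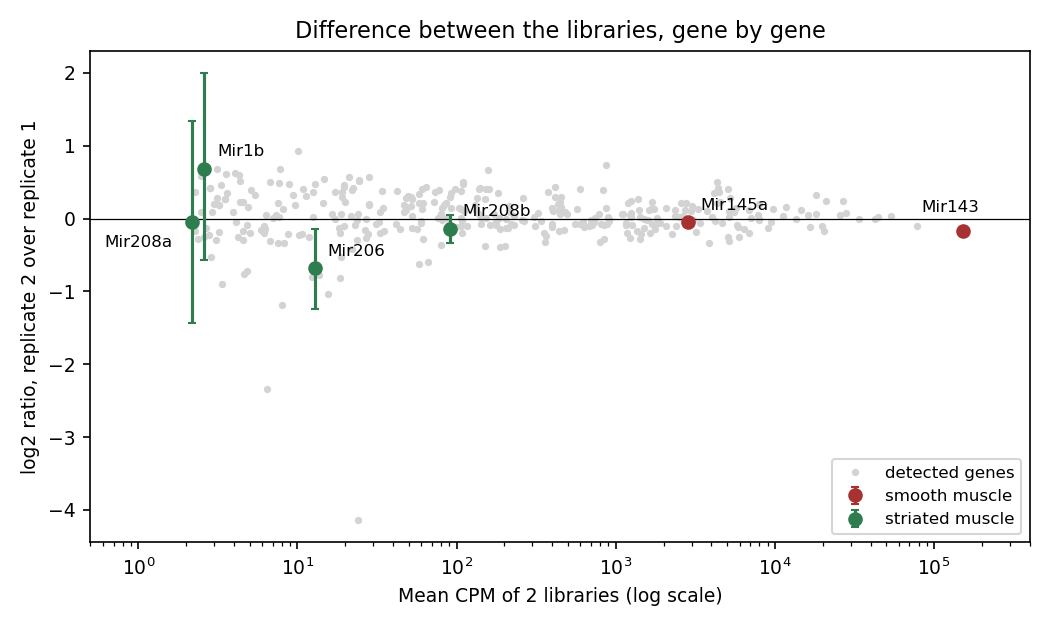
Log2 ratio of replicate 2 over replicate 1 (y axis) against mean CPM (log scale, x axis) for 361 detected genes (grey) and the 6 detected muscle genes, with exact 95% intervals. Mir206 lies at -0.68 with its interval below 0, and the intervals of Mir208b, Mir208a and Mir1b span 0.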

How the data were processed

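MicroRNA sequencing was carried out on 2 stomach samples of 1 group. Each library has 1 deposited table of raw counts per gene. The authors made these from an alignment on mm10 with GENCODE M4, per the text files deposited beside them. Aligner: not given in the sources used here. Each table has a column for both strands, used throughout, and 1 for each strand. Lines for unmapped reads (12.5% of all reads in replicate 1, 13.5% in replicate 2), reads mapping to several places (27.8% and 27.4%), reads outside genes (2.50% and 2.32%) and ambiguous reads (0) were left out of totals and tests.

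Symbols and coordinates were taken from GENCODE M21 (same assembly) by identifier without version, with a match for 1894 of 1973 genes. Replicate numbers are those of the labels. Levels are CPM, mean ± SD of 2 libraries, and a count of 3 is the limit that a count of 0 allows. Shares have 95% Wilson intervals. Folds within a library have exact (Clopper-Pearson) intervals. Libraries were compared by an exact conditional binomial test, two-sided, with Benjamini-Hochberg adjustment over genes with 10 or more counts in both, checked on simulated data (scipy 1.17.1). The simulated counts held counting noise alone, so the check does not cover variation between stomachs. Alternative scalings used edgeR 4.0.16 (TMM) and DESeq2 1.42.0 (size factors). With 1 group, edgeR's quasi-likelihood model has nothing to contrast. The genes named are the members, the fixed lists and the genes next to each detected member in the order of mean CPM. The members and lists were chosen with earlier results of these data known.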

Additional observations from a re-analysis of the deposited data

Results flagged for a closer look

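Mir1b had 7 counts on the opposite strand in replicate 2, above the limit of 3 counts that a count of 0 allows, and 2 in replicate 1. These counts are part of the counts over both strands, from which the levels and the comparison of libraries were made. The opposite strand is that of Mir1a-2. With 2 samples in 1 group, neither sample was tested for standing apart from the other.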

How the results depend on the processing

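With the gene total taken without Mir143, the smooth muscle total was 183404 CPM and the striated muscle total 131 CPM, against 155329 and 111 CPM with the whole total. The log2 ratio of smooth over striated muscle was 4.68 without Mir143, 12.90 without Mir208b, and, by alternatives chosen after seeing the data, 7.13 without both and 10.50 with the striated members that have no shared windows. Leaving out 1 replicate gave 146512 to 164146 CPM for the smooth muscle total, 104 to 119 CPM for the striated muscle total, 10.43 to 10.46 for their log2 ratio, 5.69 to 5.80 for Mir143 over Mir145a, 5.34 to 5.44 for Mir208b over Mir208a, 3.72 to 3.94 for Mir206 over Mir133b, and 80.1% to 83.1% for the share of Mir208b. Own-strand counts, TMM factors and size factors moved neither class total beyond the SD of the libraries. Between the libraries, the count of genes past both thresholds was 4 under each scaling and with own-strand counts, and 6 with the lower count minimum. No paired analysis was possible because there is 1 group. Members with fewer than 20 counts a library, Mir208a, Mir499, Mir133b, Mir1b and Mir1a-1, are limited by depth.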
